A study of Mus musculus with 16 samples.

Results

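The Hox cluster genes were examined in adult bone and newborn brain of Ali35 and wild-type mice. All probes of the array table whose annotated symbol was Hoxa, Hoxb, Hoxc or Hoxd followed by a number were taken, which gave 50 probes for 38 genes among 25697 probes for 16593 named genes. They comprised 10 genes each of the Hoxa cluster on chromosome 6 and the Hoxb cluster on chromosome 11, and 9 each of the Hoxc cluster on chromosome 15 and the Hoxd cluster on chromosome 2.

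Hox genes encode homeodomain transcription factors that give cells their position along the body axis and the limbs. Within each cluster the genes are numbered by position, genes of one number in different clusters form a paralog group, and low numbers act towards the head while high numbers act towards the tail and the ends of the limbs. In the central nervous system they are active in the hindbrain and spinal cord and not in the forebrain or midbrain, and in the skeleton many stay active in adult cells according to the site the bone comes from.

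The 16 arrays were one-colour Illumina bead arrays, 1 per mouse. The Ali35 line carries a mutated Shc2, the gene of an adaptor in receptor tyrosine kinase signalling. Bone of mice aged 120 days and brain of pups aged 3 days, all of strain C3H/HeJ, were each taken from 4 wild-type and 4 Ali35 animals, which gave 4 groups. The labels did not say which bone or which part of the brain was taken, nor the sex of the mice or whether the mice of a group were littermates, so p-values measure the spread between these arrays. Tissue and age cannot be told apart, and the arrays of each tissue were normalized separately, so values of bone and brain are set side by side without a test of their levels.

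Values are background-subtracted intensities on a linear scale and can fall below 0. An intensity of 16 was used as the level that a probe had to reach, and a probe was counted as detected in a tissue when it reached 16 on at least 4 of its 8 arrays. That level was reached by 47.3% of all probes on each bone array and by 42.3% on each brain array. The labelled tissues were checked against marker genes. In bone 8 of 9 osteoblast genes with a probe were detected, and in brain 4 of 6 neuron genes. Probes of the neuronal genes Tubb3 and Snap25 read under 16 on all 8 brain arrays, so a probe under 16 does not show that its gene was silent. No probe was annotated to Shc2. One array stood apart: Ali35 bone replicate 1 gave 221 and 167 on the probes of Xist, the RNA of the inactive X chromosome, where no other bone array exceeded 11.7 and 7.17. Eif2s3y, a Y-linked gene, read -2.5 there and 410 to 686 elsewhere in bone. Calls of Hox probes and of the gene lists in bone are therefore given with and without it.

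In bone 15 of the 38 Hox genes were detected, by 16 of the 50 probes (32%), compared with 47.6% of all probes on the array. They were Hoxa2, Hoxa5, Hoxa7, Hoxa9 and Hoxa13; Hoxb2, Hoxb4, Hoxb5 and Hoxb7; Hoxc6, Hoxc9 and Hoxc10; and Hoxd8, Hoxd9 and Hoxd10. Detected genes came mostly from the middle of the clusters: 6 of the 12 genes of paralog groups 4 to 7 and 6 of the 10 of groups 8 to 10 were detected. Of the 7 genes of groups 1 to 3, which act in the hindbrain and head, 2 were detected, and of the 9 genes of groups 11 to 13, which act in the distal limb and tail, Hoxa13 alone was. In brain 3 of the 38 genes were detected (6% of Hox probes, compared with 42.5% of all probes), namely the paralogs Hoxa5 and Hoxb5, and Hoxa13. Those 3 were also detected in bone, and 23 genes were detected in neither tissue.

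**Figure D1:**
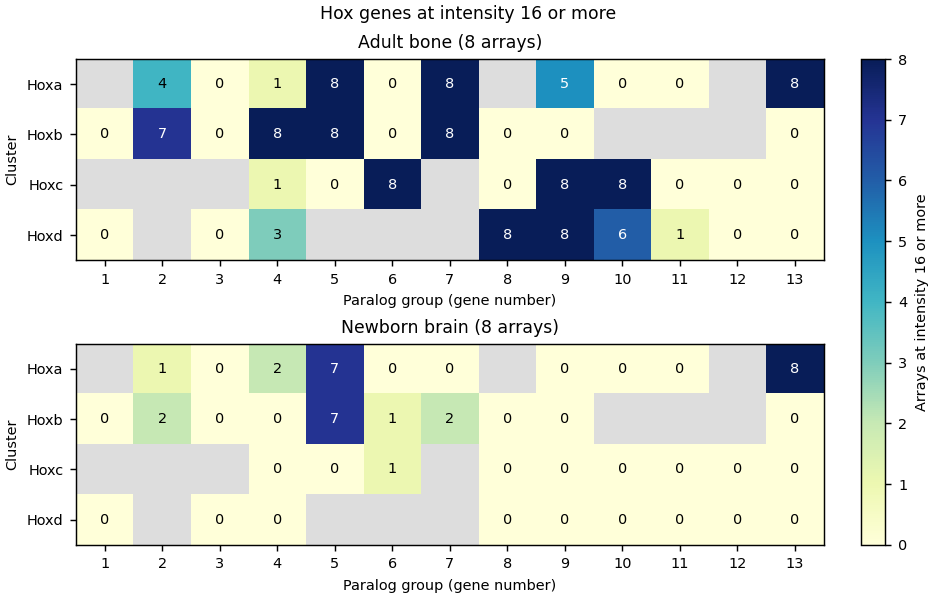
Number of arrays, out of 8, on which a Hox gene reached an intensity of 16 in adult bone (top) and newborn brain (bottom), by cluster (rows) and paralog group (columns), taking the probe of each gene that reached it most often. Grey cells hold no value. Cells filled on all 8 arrays lie between groups 4 and 10 and at Hoxa13 in bone, while in brain Hoxa13 alone reached 16 on all 8.

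The 23 genes detected in neither tissue were Hoxa3, Hoxa4, Hoxa6, Hoxa10 and Hoxa11 of the first cluster, Hoxb1, Hoxb3, Hoxb6, Hoxb8, Hoxb9 and Hoxb13 of the next, Hoxc4, Hoxc5, Hoxc8, Hoxc11, Hoxc12 and Hoxc13, and Hoxd1, Hoxd3, Hoxd4, Hoxd11, Hoxd12 and Hoxd13. In bone 12 probes reached 16 on all 8 arrays and 30 stayed under it on all 8, while 4 (Hoxa4, Hoxc4, Hoxd4 and Hoxd11) reached it on 1 to 3 arrays. The probe just inside the rule in bone was that of Hoxa2, a gene of hindbrain and branchial arch patterning. It read 18.8, 21.9, 14.9 and 14.9 in wild-type bone and 12.9, 17.3, 13.6 and 17.1 in Ali35 bone. The probe just outside it was that of Hoxd4, a gene of neck vertebra patterning, which read 12.9, 13.04, 8.18 and 17.2 in wild-type bone and 21.8, 8.05, 12.5 and 27.97 in Ali35 bone. Both probes crossed 16 in both genotypes, so neither separated the groups.

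Several genes had more than 1 probe, and the probes did not always give the same answer. Both Hoxc10 probes were detected in bone. Of the 3 probes of Hoxa13 and the 3 of Hoxa9, 1 each was detected there, as was 1 of the 2 probes of Hoxa2. In brain the same single Hoxa13 probe (ILMN_3087004) was detected and the other 2 were not. None of the 3 probes of Hoxb3, nor of the 2 each of Hoxa3, Hoxa10, Hoxb1 and Hoxc11, was detected in either tissue. The detection of Hoxa13, Hoxa9 and Hoxa2 therefore rests on 1 probe each.

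The bone comparison asked how Hox transcript levels of adult Ali35 bone differ from those of wild-type bone. Hoxc10, Hoxc6 and Hoxb4 were higher in Ali35 bone, by 1.59-fold to 1.91-fold, and Hoxb7 was lower by 1.51-fold. In all, 5 of the 16 tested Hox probes (4 genes) passed at an adjusted p under 0.05, which is 31.2%, compared with 24.6% of all 12223 probes tested in bone. That share is near the background and is not a result about Hox genes. Of these, 4 were higher (12.7% of all probes) and 1 was lower (11.9% of all probes). The median log2 change of the 16 probes was 0.16, compared with -0.04 over all probes tested, and 12 of the 16 had a positive value. With no filter on dim probes 1 of the Hox probes was called, ILMN_2836888 of Hoxc10 (adjusted p = 0.046, limma). Because whole bone was measured, fewer cells of a type and less RNA per cell cannot be told apart.

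Hoxc10 is a gene of the lumbar spine and hindlimb. Its probe ILMN_2836888 read 252, 185, 243 and 230 in wild-type bone and 560, 320, 452 and 425 in Ali35 bone. All 4 Ali35 arrays lay above all 4 wild-type arrays. The difference was 1.91-fold, a log2 change of 0.93 ± 0.17 (SE, n = 4 mice per group, adjusted p = 0.00641, limma). Its other probe, ILMN_2836885, read 123, 90.2, 127 and 102 in wild-type bone and 265, 159, 193 and 205 in Ali35 bone, again without overlap (log2 0.89 ± 0.17, adjusted p = 0.00758, limma). Both probes stayed called in each fit without 1 of the 8 arrays, with adjusted p up to 0.0211 and 0.0267. With that Xist-positive Ali35 replicate 1 left out, the log2 changes were 0.80 and 0.75 (adjusted p = 0.0127 and 0.0144, limma).

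Hoxc6, a gene of the thoracic region in the same cluster, read 118, 120, 103 and 97.7 in wild-type bone and 239, 134, 179 and 181 in Ali35 bone. The groups did not overlap, although the lowest Ali35 value was close to the highest wild-type one. The change was 1.64-fold (log2 0.72 ± 0.17, SE, n = 4 mice per group, adjusted p = 0.0154, limma), and it was 0.58 without Ali35 replicate 1 (adjusted p = 0.025). No single array left out ended the call, with adjusted p up to 0.0487.

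Hoxb4, a gene of neck patterning that is also known for its part in blood stem cells, read 31.1, 46.6, 51.8 and 37.7 in wild-type bone and 74.4, 59.1, 54.7 and 74.7 in Ali35 bone. The groups did not overlap (log2 0.67 ± 0.18, SE, n = 4 mice per group, adjusted p = 0.0242, limma). The call was lost when any of 4 arrays was left out, namely wild-type replicates 1 and 4 and Ali35 replicates 1 and 4, with adjusted p up to 0.0691. Without Ali35 replicate 1 the change was 0.60 (adjusted p = 0.0556).

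Hoxb7, a thoracic gene of the same cluster as Hoxb4, was the one Hox probe called lower. It read 83.6, 75.3, 62.98 and 76.2 in wild-type bone and 56.1, 33.6, 49.4 and 62.96 in Ali35 bone. The groups met almost exactly at the lowest wild-type and the highest Ali35 value, without crossing. The log2 change was -0.59 ± 0.19 (SE, n = 4 mice per group, adjusted p = 0.0459, limma). The call was lost when any of 6 arrays was left out and kept only without wild-type replicate 3 or Ali35 replicate 4, with adjusted p up to 0.114. It was also lost when values were raised to at least 8 or 32 instead of 16. Every Hoxb7 value in bone was 33.6 or more, so those floors left its own values unchanged and altered only other probes of the fit. The groups thus did not overlap for 5 of the 16 tested Hox probes, compared with 28.7% of all probes tested in bone.

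**Figure D2:**
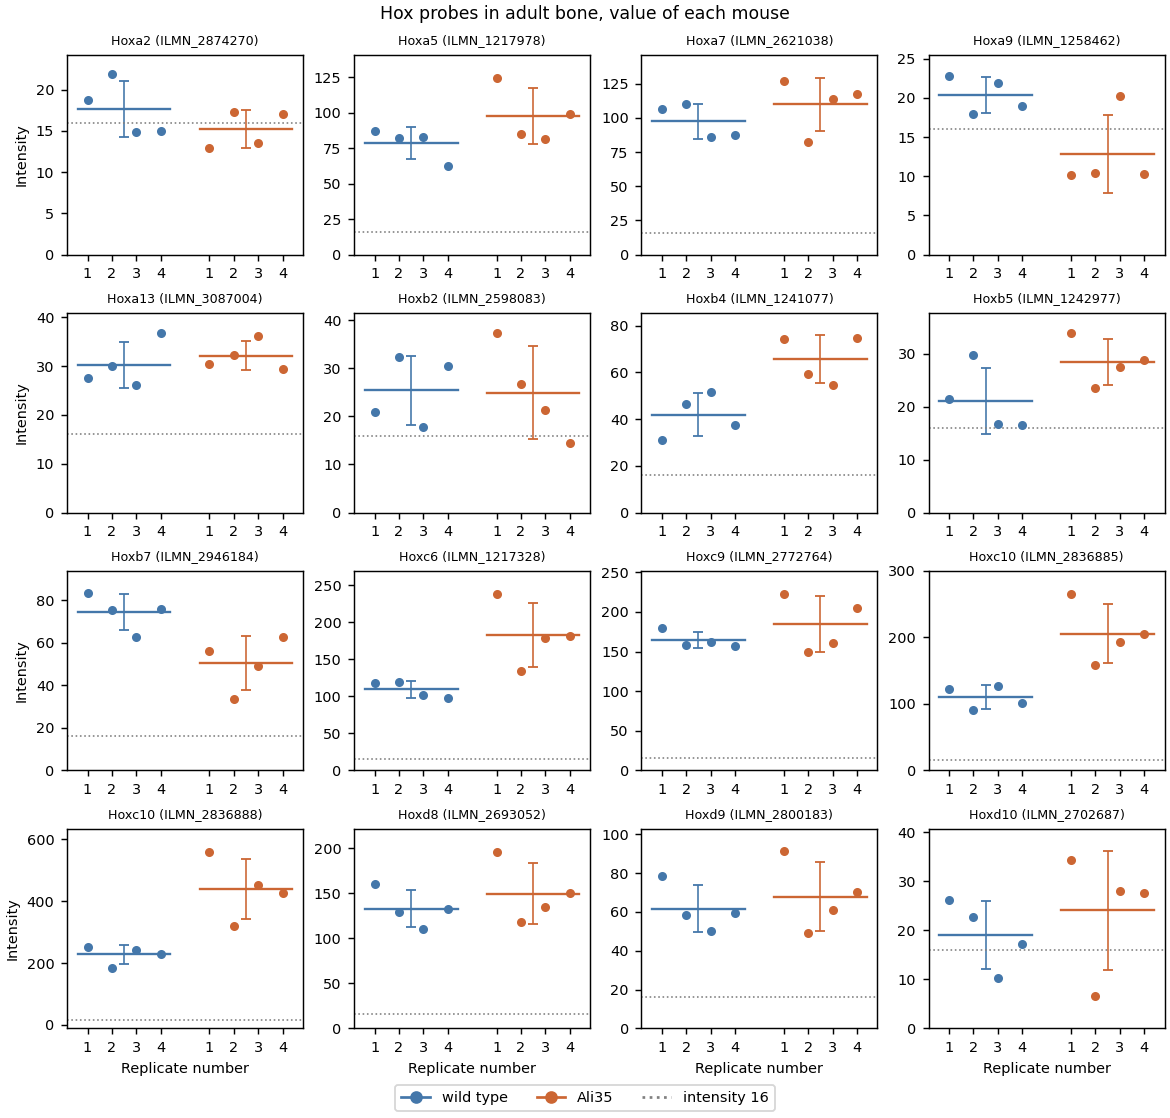
Intensity of each of the 16 Hox probes detected in bone (vertical axes, linear, 1 scale per probe) in the 4 wild-type (blue) and 4 Ali35 mice (orange), numbered by replicate. Horizontal lines are group means, bars are ± SD over 4 mice, and the dotted line is the intensity of 16. The groups are apart for both Hoxc10 probes, Hoxc6 and Hoxb4, they meet without crossing for Hoxb7, and Ali35 replicate 1 is the highest point in 11 of the 16 panels.

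The other 11 Hox probes tested in bone did not pass, with log2 changes between -0.26 and 0.46 and adjusted p between 0.115 and 0.952 (limma). Hoxb5, a gene of the neck and upper chest region, came next: it read 21.4, 29.8, 16.7 and 16.6 in wild-type bone and 34.0, 23.5, 27.6 and 28.9 in Ali35 bone. Wild-type replicate 2 lay within the Ali35 values, and the change was 0.46 ± 0.20 (adjusted p = 0.115, limma), or 0.64 with an adjusted p of 0.0277 without that array. Its paralog Hoxa5 read 62.1 to 86.9 in wild-type and 81.3 to 125 in Ali35 bone (0.30 ± 0.16, adjusted p = 0.199, limma).

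The remaining genes of the Hoxa and Hoxb clusters showed overlapping groups. Hoxa7, a thoracic gene, read 85.9 to 110 in wild-type and 82.4 to 127 in Ali35 bone. Hoxa9, known for its part in blood progenitors, read 22.8, 17.96, 21.8 and 19.0 in wild-type bone and 10.2, 10.4, 20.3 and 10.3 in Ali35 bone. All but 1 of its Ali35 arrays lay well under 16, the remaining one lay within the wild-type range, and the probe entered the test mainly through its wild-type arrays. Since values under 16 were set to 16, its change was -0.26 ± 0.12 (adjusted p = 0.158, limma), but -0.73 with an adjusted p of 0.0437 when values were raised to at least 8 instead. Hoxa13, which patterns digits and the urogenital tract, read 26.2 to 36.8 in wild-type and 29.5 to 36.3 in Ali35 bone. Hoxb2, a hindbrain gene, read 17.8 to 32.3 and 14.5 to 37.3.

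In the Hoxc and Hoxd clusters 4 further genes did not pass. Hoxc9, a thoracic gene between Hoxc6 and Hoxc10, read 158 to 180 in wild-type and 149 to 223 in Ali35 bone, with a log2 change of 0.15 ± 0.14 (adjusted p = 0.467, limma). Thus both Hoxc10 probes and Hoxc6 passed and Hoxc9 did not, and the difference between these changes was not tested. Hoxd8 read 110 to 160 in wild-type and 118 to 196 in Ali35 bone, and Hoxd9, a gene of the lumbar region and limb, read 50.2 to 78.6 and 49.2 to 91.5. Hoxd10, which acts in hindlimb motor neurons and the limb, read 26.1, 22.7, 10.3 and 17.2 in wild-type bone and 34.2, 6.52, 27.98 and 27.6 in Ali35 bone. Each genotype had 1 Hoxd10 value under 16. The groups overlapped only through the Ali35 value of 6.52, since the other Ali35 values lay above every wild-type value (0.34 ± 0.24, adjusted p = 0.322, limma). Without single arrays the Hoxd10 change ranged from 0.20 to 0.57, with adjusted p from 0.059 to 0.576 (limma).

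Single arrays stood out among the Hox probes tested in bone. Ali35 bone replicate 1 had the highest value of the 8 arrays for 11 of the 16 Hox probes, compared with 14.6% of all probes tested in bone. Over all 50 Hox probes, detected or not, it was highest for 14, compared with 13.4% of all probes on the array. Ali35 bone replicate 2 had the lowest value for 5 of the 16, compared with 14.4% of all probes tested, and for 12 of the 50. These are descriptions of single arrays, and replicate 1 is the array with the Xist signal. Without it 3 Hox probes were called, those of Hoxc10 and Hoxc6, all of them higher, and the change of Hoxd9 went from 0.12 ± 0.20 to -0.04 ± 0.18.

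Marker genes of cell types in bone were read beside these values, 1 probe per gene, where 24.3% of all genes tested in bone were called. Summed over the cartilage cell markers, the level was 2113 to 4075 in wild-type and 8707 to 11951 in Ali35 bone, without overlap, and 4 of 6 tested markers were higher (Col2a1, Acan, Chad and Comp). Most of that sum was Col2a1, which averaged 1431 in wild-type and 5375 in Ali35 bone, and Chad (1191 and 3817). Matn1 (0.74 ± 0.48, adjusted p = 0.286) and Col9a1 (0.17 ± 0.23, adjusted p = 0.611) did not pass (limma). Matn3 of that list stayed under 16 on all 8 arrays. The sum therefore does not stand for each cartilage marker. The summed osteoblast markers ranged from 44393 to 60942 in wild-type and from 56137 to 79731 in Ali35 bone (3 of 8 higher: Alpl, Col1a1 and Sp7). The upper end is Ali35 replicate 1, and the sums of the other 3 Ali35 arrays lay within the wild-type range. The summed muscle markers ranged from 84907 to 94221 in wild-type and from 91474 to 125878 in Ali35 bone (3 of 8 higher: Atp2a1, Myh4 and Ryr1). The call of Atp2a1 was lost without wild-type replicate 1, 2, 3 or 4, and without Ali35 replicate 1 or 3. Among 10 blood and marrow markers, Mpo was higher and Cd79b lower, with sums of 109636 to 117816 and 116996 to 127845. The fat cell gene Lep was lower (1 of 5). Among 5 fibroblast genes Lum was lower (-0.55 ± 0.17, adjusted p = 0.0446, limma) while the list median was 0.23, and it kept its call only without wild-type replicate 2 or 3. Without Ali35 replicate 1 the calls of the cartilage, osteoblast and blood lists were those just named, Atp2a1 was no longer called, the fat gene Cidec was called lower beside Lep, and 0 of 5 fibroblast genes were called (limma), with 1 at an unadjusted p under 0.05. In the main fit the shares of the blood, fat and fibroblast lists lay near that of all genes and are not a result about these cells. Without Ali35 replicate 1 the fat list had 2 of 5 called. The part of these cell types in the Hox results was not tested.

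**Figure D3:**
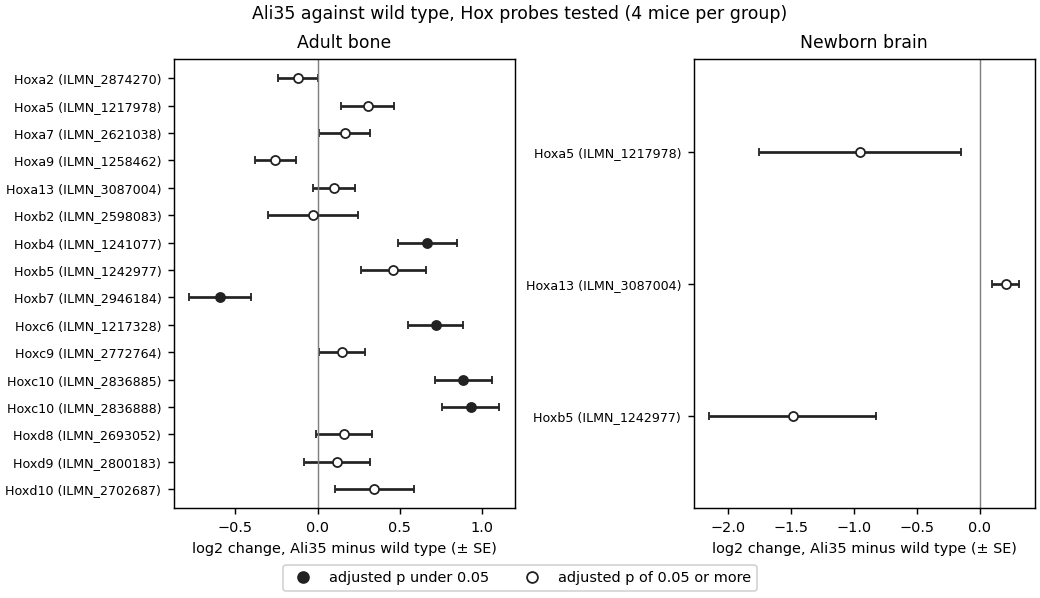
Log2 change (Ali35 minus wild type, horizontal axes) with its moderated standard error for the Hox probes tested in bone (left, 16 probes) and brain (right, 3 probes), 4 mice per group. Filled points passed at an adjusted p under 0.05: 4 higher and 1 lower in bone, none in brain, where the errors of Hoxa5 and Hoxb5 are several times those in bone.

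Promoters are shown for 3 detected genes: Hoxb4, the one called Hox gene whose promoter was in the RefSeq table used, Hoxd8, which held the same motif and was not called, and Hoxa5, which was detected in both tissues. Of the 15 detected genes 9 had a promoter there, while Hoxb2, Hoxb5, Hoxb7, Hoxc6, Hoxc9 and Hoxc10 did not. The 250 bases before the start of each gene are given (RefSeq, GRCm38.p6), for Hoxb4 at chr11:96318017-96318266 on the + strand, for Hoxd8 at chr2:74704365-74704614 on the + strand and for Hoxa5 at chr6:52204588-52204837 on the - strand. Capitals mark matches to AGGTCA, the half-site of retinoid and other nuclear receptors, read as TGACCT on the opposite strand.
Hoxb4: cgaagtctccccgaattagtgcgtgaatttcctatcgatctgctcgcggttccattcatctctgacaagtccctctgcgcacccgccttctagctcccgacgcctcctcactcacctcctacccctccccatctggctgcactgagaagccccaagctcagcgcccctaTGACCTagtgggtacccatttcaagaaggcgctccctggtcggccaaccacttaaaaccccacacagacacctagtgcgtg
Hoxd8: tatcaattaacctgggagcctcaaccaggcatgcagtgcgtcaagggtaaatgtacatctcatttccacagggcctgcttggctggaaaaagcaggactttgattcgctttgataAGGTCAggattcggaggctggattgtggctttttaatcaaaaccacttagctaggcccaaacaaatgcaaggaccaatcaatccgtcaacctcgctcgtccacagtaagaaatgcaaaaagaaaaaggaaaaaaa
Hoxa5: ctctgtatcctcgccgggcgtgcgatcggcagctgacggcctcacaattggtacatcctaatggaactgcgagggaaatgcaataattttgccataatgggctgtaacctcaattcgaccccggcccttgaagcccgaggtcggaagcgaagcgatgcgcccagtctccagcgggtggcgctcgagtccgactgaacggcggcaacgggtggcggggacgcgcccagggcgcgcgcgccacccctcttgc
The Hoxb4 and Hoxd8 windows each held 1 match, and the Hoxa5 window held none. Over both strands, AGGTCA was present in 14.02% of all 32851 promoter windows of that length and in 6 of the 24 Hox windows (Hoxb4, Hoxc4, Hoxd3, Hoxd4, Hoxd8 and Hoxd10). TGACAG, the core of Meis binding sites, was present in 15.9% of all windows and in 2 Hox windows (Hoxa2 and Hoxa3), and TGATTNAT, bound by Pbx with Hox proteins, in 2.82% and in 2 (Hoxa2 and Hoxd11). The motifs do not overlap in the windows shown, since the other 2 were not found there. The Hox windows had a median GC content of 58.6% and 12.5 CpG dinucleotides, compared with 52.4% and 6 over all windows. The Hoxa5 window had 63.6% GC and 28 CpG, Hoxb4 58% and 14, and Hoxd8 44.4% and 6. A match describes these letters only and does not show binding.

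The brain comparison put the same question to pups, and 0 of the 3 Hox probes tested passed (limma), compared with 3.64% of all 10922 probes tested in brain (1.9% higher and 1.74% lower), while 1 had an unadjusted p under 0.05. None of the 3 had groups without overlap, compared with 15.7% of all probes. The paralogs Hoxa5 and Hoxb5 instead differed widely between single pups of one genotype. Hoxa5, a gene of the lower hindbrain, neck and upper chest, read 147, 153, 94.8 and 314 in wild-type brain and 137, -0.51, 54.3 and 402 in Ali35 brain. Hoxb5, its partner in the Hoxb cluster, read 163, 138, 74.1 and 205 in wild-type brain and 61.5, 0.37, 27.0 and 208 in Ali35 brain. For both genes Ali35 pup 2 was lowest of all 8, Ali35 pup 3 next lowest, and Ali35 pup 4 highest, with wild-type pup 4 next.

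The genotype means of both genes lay within that spread. Hoxa5 averaged 177 ± 94.9 in wild-type and 148 ± 178 in Ali35 brain (SD, n = 4 mice per group), a log2 change of -0.95 ± 0.80 (adjusted p = 0.508, limma). Hoxb5 averaged 145 ± 54.7 and 74.1 ± 92.5, a log2 change of -1.49 ± 0.66 (adjusted p = 0.208, limma). One pup decided much of these values: without Ali35 pup 4 Hoxb5 was called lower (-2.19 ± 0.45, adjusted p = 0.0419, limma), and without Ali35 pup 2 its change was -0.95 (adjusted p = 0.386). For Hoxa5 the change was -1.71 without Ali35 pup 4 (adjusted p = 0.15) and -0.16 without Ali35 pup 2 (adjusted p = 0.902).

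Hoxa13 spanned a narrow range in brain. It read 24.4, 25.1, 21.1 and 20.2 in wild-type brain and 29.0, 24.6, 26.7 and 24.3 in Ali35 brain, and it was the one Hox probe at or above 16 in every pup. The groups overlapped (log2 0.21 ± 0.11, adjusted p = 0.269, limma). The same probe read 26.2 to 36.8 over the 8 bone arrays.

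Among probes that were not tested in brain, 6 reached 16 on 1 to 3 arrays, and their values are given as a description. Hoxb7 read 4.24, 7.82, 7.36 and 19.4 in wild-type brain and 0.89, -1.63, -2.91 and 32.2 in Ali35 brain. Hoxc6 read 4.09, 2.27, 9.02 and 12.2 in wild-type brain and -4.31, -1.48, -0.55 and 31.0 in Ali35 brain. For both of these genes, as for Hoxa5 and Hoxb5, the highest values were those of Ali35 pup 4 and wild-type pup 4. Hoxb6, a thoracic gene, read at most 11.8 except for 20.4 in Ali35 pup 4, and Hoxa2 at most 12.9 except for 22.5 in that pup. Hoxb2 reached 16 in wild-type pup 1 (18.5) and Ali35 pup 4 (27.6), and Hoxa4 in Ali35 pups 1 (20.6) and 4 (25.3). Counted over all 50 Hox probes, Ali35 pup 4 gave the highest value of the 8 pups for 15, compared with 15.3% of all probes on the array, and Ali35 pup 2 the lowest for 10, compared with 12.97% of all probes.

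**Figure D4:**
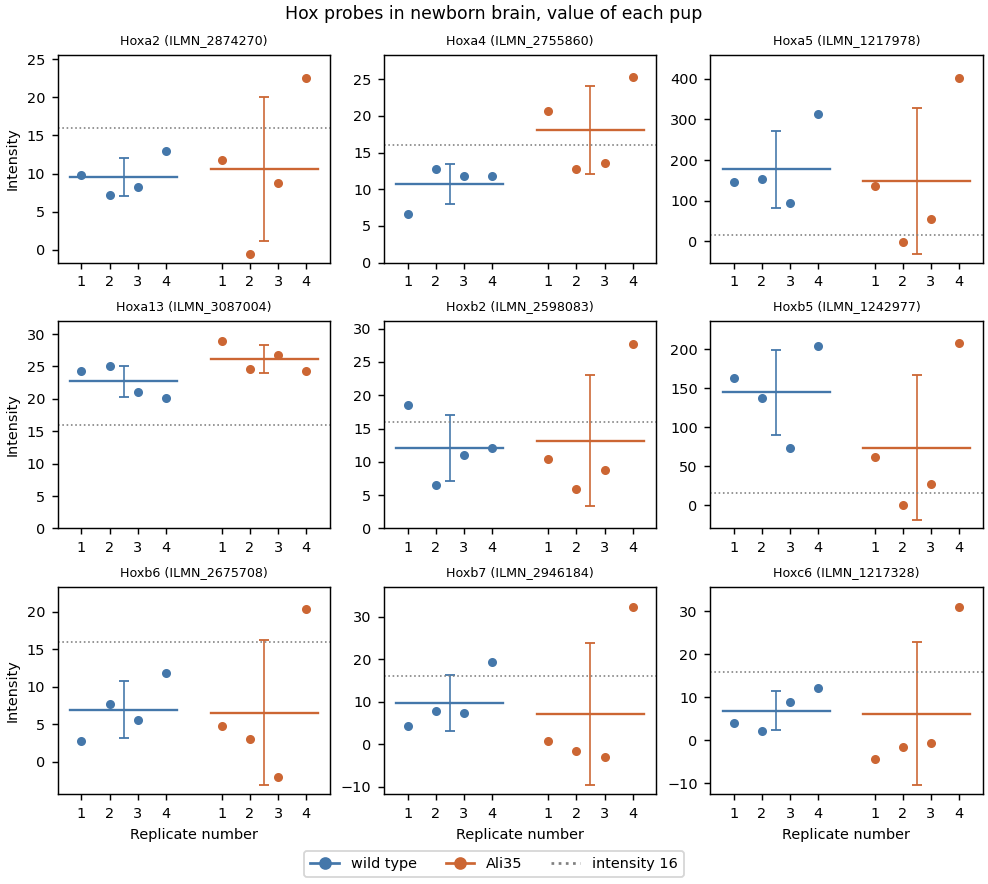
Intensity of the 9 Hox probes that reached 16 on at least 1 brain array (vertical axes, linear, 1 scale per probe) in 4 wild-type (blue) and 4 Ali35 pups (orange), numbered by replicate. Lines are group means, bars are ± SD over 4 pups, and the dotted line is the intensity of 16. Ali35 pup 4 is the highest point in every panel but that of Hoxa13, and Ali35 pup 2 lies near 0 for Hoxa5 and Hoxb5.

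Genes of other brain regions were read beside these values, because the Hox genes mark the hindbrain and spinal cord. Of 17 genes of hindbrain and spinal cord identity with a probe, 8 were detected in brain and 9 stayed under 16 on all arrays, among them Pax2, Phox2a, Lbx1 and the glycine transporter gene Slc6a5. Their summed level was 822 to 989 in wild-type and 779 to 984 in Ali35 brain. In the order of replicates 1 to 4 the sums were 989, 822, 895 and 929 in wild-type and 911, 779, 984 and 899 in Ali35 pups. Ali35 pup 2 was lowest here too, while Ali35 pup 4 was not highest. En2, a gene of the midbrain-hindbrain boundary and cerebellum, read 151 in Ali35 pup 2 and 125 in Ali35 pup 4, within or below the 136 to 171 of wild-type pups. Of the 8 genes detected, 0 passed between genotypes (limma), compared with 3.44% of all genes tested in brain, with 2 at an unadjusted p under 0.05, and 0 of 8 forebrain and midbrain genes passed, with 1 at an unadjusted p under 0.05. The forebrain and midbrain genes summed to 2193, 2218, 2237 and 2056 in wild-type pups 1 to 4. In Ali35 pups 1 to 4 they summed to 2349, 2480, 2254 and 2022. By these sums Ali35 pup 2 was highest and Ali35 pup 4 lowest, with wild-type pup 4 next lowest. Most of the forebrain and midbrain sum was Bcl11b, which averaged 1192 in wild-type and 1220 in Ali35 brain. Most of the hindbrain and spinal cord sum was Zic1 (386 and 311) and Gbx2 (213 and 267). The order of the pups in either sum therefore does not stand for the other genes of its list. The part of either list in the spread between pups was not tested.

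The difference between the Ali35 changes of the tissues was tested for the 3 Hox probes tested in both. None of them passed (limma interaction term), compared with 24.4% of the 9225 probes tested in both tissues, while 1 had an unadjusted p under 0.05. For Hoxb5 the change was 0.46 in bone and -1.49 in brain, a difference of 1.95 ± 0.76 (adjusted p = 0.0709). It was called without Ali35 brain replicate 4 (2.65, adjusted p = 0.00289) and without wild-type brain replicate 3 (2.24, adjusted p = 0.0491). Over the alternative floors, scaling and models the Hoxb5 difference ranged from 1.20 to 2.20. For Hoxa5 the difference was 1.26 ± 0.91 (adjusted p = 0.327), which was called without Ali35 brain replicate 4 (2.01, adjusted p = 0.0477). For Hoxa13 it was -0.11 ± 0.16 (adjusted p = 0.661).

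Genes that act with or on the Hox clusters were read from the same fits, using the probe of highest mean for each gene. By that count 24.3% of 8700 genes were called in bone and 3.44% of 7844 in brain, with median log2 changes of -0.03 and 0.02. The Meis, Pbx and Pknox genes encode the TALE homeodomain cofactors that bind DNA with Hox proteins. Of 6 tested in bone, 0 passed (limma), with a median of 0.12, and without Ali35 replicate 1 again 0 passed. Meis1 (0.34 ± 0.11, adjusted p = 0.0518) and Pknox2 (0.66 ± 0.22, adjusted p = 0.0531) had an unadjusted p under 0.05, also without that array, and were picked out after their values were seen. Of 7 tested in brain 0 passed (limma), with a median of -0.28, and 4 (Meis1, Meis2, Meis3 and Pbx2) had an unadjusted p under 0.05.

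The Trithorax and MLL proteins keep Hox genes active. The list used here also held associated genes such as Kdm6b, Dot1l and Mllt1, while its members Kmt2a, Kansl1 and Ash1l had no annotated probe. In bone 5 of 14 tested genes of this list were higher and 0 lower, with a list median of 0.24. Kmt2b, a histone H3 lysine methyltransferase gene, rose by 1.41 ± 0.16 on the log2 scale (adjusted p = 0.000846, limma), and Hcfc1, a subunit shared by such methyltransferase complexes, by 1.29 ± 0.15. Kdm6b, a demethylase gene that removes the Polycomb mark, rose by 1.38 ± 0.16, and Dot1l, another histone methyltransferase gene, by 1.01 ± 0.21. Without Ali35 replicate 1 all 5 called genes stayed called, with a list median of 0.18. Mllt1, a member of the Dot1l-associated elongation machinery named here to complete the count, had 0.56 ± 0.15 and lost its call without wild-type replicate 1, 3 or 4 or Ali35 replicate 3, with adjusted p up to 0.0763. In brain 2 of 14 passed: Mllt3, a relative of Mllt1, rose by 1.27 ± 0.17 and Kdm6a by 0.46 ± 0.11. Second probes of Mllt3 (0.43) and Kdm6a (0.25) did not pass, and Kdm6a lost its call without any array other than wild-type replicate 2, with adjusted p up to 0.131.

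Polycomb proteins keep Hox genes silent. In bone 1 of 19 tested genes passed, the repressive complex gene Phc1, which rose by 0.68 ± 0.10 (adjusted p = 0.00276, limma), and the list median was -0.14. Without Ali35 replicate 1 Phc1 was again the 1 gene called (0.66, adjusted p = 0.00733). In brain 3 of 18 were higher and 1 lower, with a list median of 0.07. Ezh2, the methyltransferase of the complex, rose by 0.74 ± 0.12, and Pcgf5 by 0.64 ± 0.09 and Pcgf3 by 0.49 ± 0.12, both subunits of the other Polycomb complex. Eed, a partner of Ezh2, fell by 0.69 ± 0.16 on the log2 scale. Pcgf5 stayed called without any 1 array, while Ezh2 lost its call without wild-type replicate 4 (adjusted p = 0.0545). Pcgf3 kept its call only without wild-type replicate 2 or Ali35 replicate 4, with adjusted p up to 0.128, and Eed only without Ali35 replicate 1, with adjusted p up to 0.124. The change of Eed depended on the floor, at -0.08 with values raised to at least 32.

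Markers of glia and blood were read beside these chromatin genes in brain. Of 6 glia markers tested 1 passed, the astrocyte gene Gfap, which was lower (-0.58 ± 0.13, adjusted p = 0.0465, limma) and lost its call in every fit without 1 array. With 4 of the 6 at an unadjusted p under 0.05 (Gfap, Pdgfra and Mbp lower, Slc1a3 higher), the list median was -0.25. Mbp, a myelin gene, had -0.69 ± 0.25 (adjusted p = 0.137, limma). Summed glia markers were 5700 to 6494 in wild-type and 6294 to 7114 in Ali35 brain, and Olig2 was under 16 on all arrays. Most of that sum was Slc1a3, which averaged 4414 in wild-type and 5296 in Ali35 brain (log2 0.26 ± 0.09). The sum therefore does not stand for the other glia markers. Blood markers summed to 6568 to 11678 and 3604 to 6884, and of the 2 tested 0 passed (limma), with 1 at an unadjusted p under 0.05, the haemoglobin gene Hba-a1 (-0.95 ± 0.24, adjusted p = 0.0532). Nearly all of that sum was Hba-a1, which averaged 8628 in wild-type and 4523 in Ali35 brain. The other marker tested, S100a8, had a positive change (0.83 ± 0.47, adjusted p = 0.318, limma). A further 8 blood markers stayed under 16 on all brain arrays, so the sum does not stand for blood cells as a whole. The part of these glia and blood markers in the results on Polycomb and Trithorax genes was not tested.

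**Figure D5:**
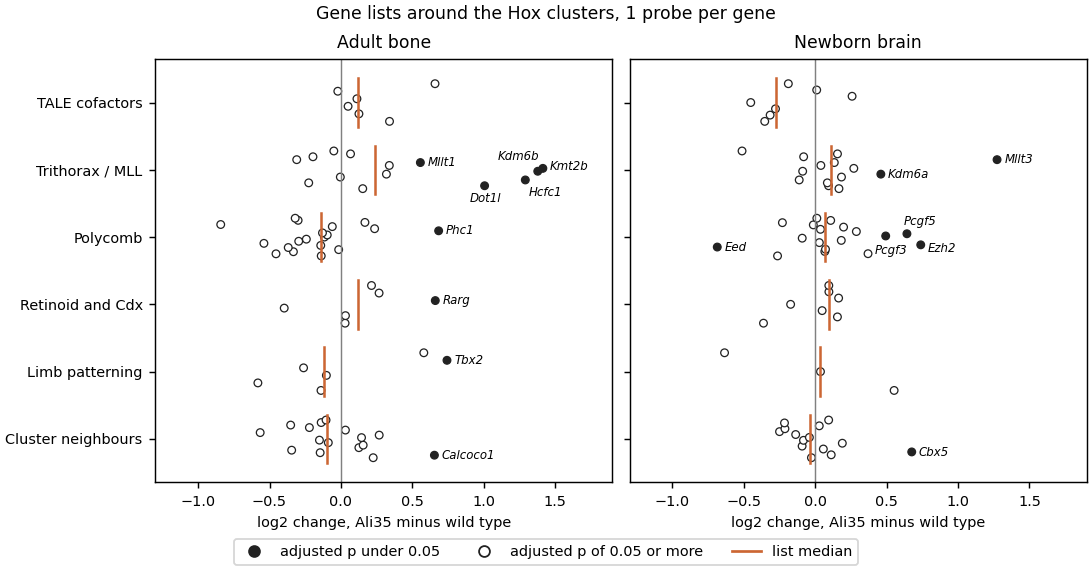
Log2 change (Ali35 minus wild type, horizontal axes) of genes in 6 lists around the Hox clusters, 1 probe per gene, in bone (left) and brain (right). Points are spread vertically for legibility, filled points passed at an adjusted p under 0.05 and are named, and orange lines are list medians. In bone 5 genes of the Trithorax and MLL list passed, all to the right of 0.

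Retinoic acid and the Cdx proteins switch Hox genes on in the embryo. In bone the retinoic acid receptor gene Rarg was higher (0.66 ± 0.15, adjusted p = 0.014, limma), 1 of 6 tested, with a list median of 0.12. Without Ali35 replicate 1 Rarg had 0.77 (adjusted p = 0.00983). A second Rarg probe had 0.92 ± 0.32 and did not pass. With the probe of median change for each gene instead, 0 of 6 were higher and the receptor gene Rarb was called lower. Of the 7 tested in brain 0 passed (limma), with 1 at an unadjusted p under 0.05 and a median of 0.10. Among 6 genes of limb and axial patterning tested in bone, Tbx2, a T-box repressor gene, was higher (0.74 ± 0.21, adjusted p = 0.0322, limma). It kept its call only without wild-type replicate 1 or Ali35 replicate 4, with adjusted p up to 0.0905, had 0.11 with values raised to at least 32, and the list median was -0.12. Without Ali35 replicate 1 Tbx2 had 0.71 (adjusted p = 0.0672), the homeobox genes Meox2 and Shox2 were called lower, and the median was -0.28. In brain 0 of 3 passed (limma), with 2 at an unadjusted p under 0.05 and a median of 0.04.

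Genes that lie beside the 4 clusters were read as well. In bone 1 of 16 passed, Calcoco1, near the Hoxc cluster (0.65 ± 0.17, adjusted p = 0.0234, limma), with a list median of -0.10. It lost its call without wild-type replicate 1, wild-type replicate 4 or Ali35 replicate 1, with adjusted p up to 0.067, so that 0 of 16 were called without Ali35 replicate 1 (limma), with 2 at an unadjusted p under 0.05. In brain 1 of 14 passed, Cbx5, a heterochromatin protein gene near the same cluster (0.68 ± 0.08, adjusted p = 0.0106, limma), with a list median of -0.03, and it stayed called in each fit without 1 of the 8 arrays.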

How the data were processed

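RNA of 16 mice had been hybridized to 16 one-colour bead arrays. The deposited values were normalized intensities, for which the submitters' processing notes name GenomeStudio 2011.1. Values below 0 and nearly equal quartiles within a tissue show that the authors had subtracted background and normalized the 8 arrays of each tissue together; how they normalized is not given in the sources used here. Another, non-normalized table of 32 columns matched no label and was not used. Intensities under 16 were set to 16 and taken to log2, probes at 16 or more on at least 4 of 8 arrays were kept, and each tissue was fitted over all kept probes with limma 3.58.1 in R 4.3.3 (lmFit, eBayes, two-sided). Calls used a Benjamini-Hochberg adjusted p under 0.05. An interaction term over 16 arrays tested the difference between tissues. Errors of log2 changes are moderated standard errors.

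The members, the gene lists and the alternatives were chosen with earlier results of these data known. Every Hox gene detected is named with values, others by name, and of each list up to 4 called genes of lowest p; other names were chosen after their values were seen. The number of arrays limits the precision. Alternatives were the floor, the filter, the scaling, the variance model, array weights, all 16 arrays in one model, the replicate number as a block and leaving out each array.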

Additional observations from a re-analysis of the deposited data

Results flagged for a closer look

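Hoxa9 in Ali35 bone had 1 mouse far from the other 3. Its probe ILMN_1258462 read 20.3 in Ali35 bone replicate 3 and 10.2 to 10.4 in the other 3 mice, a gap of 0.978 of the whole range of the group, above Dixon's critical value for 4 samples. This was 1 of 38 groups of 4 mice looked at, and chance gives such a gap in about 1 in 20 groups. The value of replicate 3 lay within the 17.96 to 22.8 of wild-type bone.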

How the results depend on the processing

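Calls of Hox probes in bone numbered 3 to 5 when single arrays were left out (3 to 5 higher, 0 to 1 lower), 1 (higher, Hoxc10) with no filter on dim probes, where 0 were lower, 0 lower with values set to at least 32, and 2 lower with all 16 arrays in one model. In brain 0 to 1 were called without single arrays (0 to 1 lower), and for the difference between tissues 0 to 2, and 1 with a trended variance. Detection in bone was 15 to 16 probes without single arrays, 10 at a level of 32, 22 at a level of 8, 12 on all 8 arrays, 20 on at least 1 and 14 with quantile normalization over all 16 arrays. In brain it was 3 without single arrays, 7 at a level of 8, 1 on all 8 arrays and 9 on at least 1. Genes called in the lists around Hox numbered 9 in bone (7 to 12 without single arrays, 4 with no filter) and 7 in brain (3 to 6, and 2). Hoxb2 in bone turned to 0.051 at a floor of 32, to 0.013 with quantile normalization over all 16 arrays and ranged from -0.24 to 0.17 without single arrays; Hoxa13 in bone turned to -0.0024 at a floor of 32, and Hoxd9 ranged from -0.036 to 0.26 without single arrays. The cause was not tested. Hoxb7 also lost its call at floors of 8 and 32 and with no filter, settings that left its own bone values unchanged.

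Arrays of one replicate number deviated together weakly at most (r from -0.12 to 0.16 in bone and 0.01 to 0.14 in brain). The array of the same number was the closest match for replicate 1 in bone and replicates 3 and 4 in brain, and not for the others. The numbers were therefore not taken as pairs in the main fits, although a weak pairing in brain stays possible. With the replicate number as a block, 4 Hox probes were called in bone (3 higher, 1 lower), Hoxb4 losing its call (adjusted p = 0.0626), 0 in brain, and 1, Hoxb5, for the difference between tissues (adjusted p = 0.0246). Over all probes the main counts were 3006 in bone and 398 in brain. With no filter they were 1430 and 19, and without single arrays 1639 to 2639 and 43 to 240. In brain they were 248 at a floor of 8, 224 with quantile normalization over all 16 arrays, 840 with a trended variance, 850 with a trended and robust one, 947 in one model and 206 with the block. No scaling moved the median of all probes by 0.1. Signal near 16 limits the Hox probes of low level in both tissues.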
